A study of Mus musculus with 10 samples.

Results

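Transcripts of 6 mouse Siglec genes, Siglech, Cd33, Siglece, Siglec1, Siglecg and Cd22, were followed in microglia with different numbers of intact Trem2 copies. The members were taken by gene name and made up 6 of 24033 usable gene names in each library, and all 6 were measured. The libraries came from adult C57BL/6 mice of 3 to 5 months: 3 KO libraries (TREM2-/-, 1 female and 2 male), 3 Het libraries (TREM2+/-, 2 female and 1 male) and 4 WT libraries (TREM2+/+, 2 female and 2 male). Microglia, the resident macrophages of the brain, had been isolated by CD11b magnetic bead selection; CD11b is an integrin chain also found on monocytes, neutrophils and border macrophages. RNA was made into sequencing libraries with an amplifying cDNA kit. The labels do not say how the TREM2-/- allele was made, or whether 1 or several mice gave a library, and p-values therefore rest on library-to-library spread, which may be technical. Levels are RPKM, which divides reads by gene length and by library size, so that genes can be set side by side.

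Siglecs are cell-surface lectins of the immunoglobulin superfamily that bind sialic acids, the acidic sugars that cap many glycans of vertebrate cells. Most carry tyrosine motifs in the cytoplasmic tail that recruit the phosphatases SHP-1 and SHP-2 and dampen activation. Siglec-H, encoded by Siglech, lacks such a motif and instead pairs with DAP12 (Tyrobp), the adaptor that TREM2 also uses; it marks mouse microglia and plasmacytoid dendritic cells. CD33 is a myeloid Siglec whose human gene is an Alzheimer's disease risk locus, and mouse Siglec-E is an inhibitory receptor of neutrophils, monocytes and microglia. Siglec-1, or sialoadhesin, is an adhesion receptor of tissue macrophages, while CD22 and Siglec-G are inhibitory co-receptors of B cells.

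Of the 6 genes, 5 lie on chromosome 7 and Siglec1 lies on chromosome 2 (131069220 to 131086765, minus strand; GRCm38, GENCODE M21). Siglecg (chromosome 7, 43408204 to 43418358, plus strand), Cd33 (43524216 to 43544428, minus strand) and Siglece (43651070 to 43660161, minus strand) form a run with gaps of 105.9 and 106.6 kb. Cd22 (30865402 to 30880342, minus strand) and Siglech (55768178 to 55778925, plus strand) lie apart on either side of it, Siglech 12108 kb beyond Siglece. All are annotated as protein-coding. Cd22 overlaps the antisense gene Gm29439 in the annotation, and no source used here says whether reads were counted by strand. The transcripts of Siglech and Cd33 shared 69.5% identity over 591 aligned bases, so the most abundant members are not near-identical copies. Siglecg matched the predicted gene Gm29791, which is absent from the deposited gene names, at 98.4% over 382 bases. It also matched Plscr2, which is among those names, at 95.3% over 128 bases. No source used here says how reads from such stretches were counted, so the level of Siglecg is uncertain to that extent. Siglec1 had stretches of 154 to 178 bases at 95.3% to 97.2% identity with 10 other genes, which leaves its level uncertain in the same way. Of these genes, Gm44044, Gm49413, Gm49494 and Wdcp are absent from the deposited gene names.

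The 250 bases before the transcript start are shown for Cd33, Siglech and Siglece, the 3 members with the highest levels (RefSeq, GRCm38.p6, 5′ to 3′ on the strand of the gene). Capitals mark GAGGAA or its reverse complement TTCCTC, the core letters bound by PU.1, a lineage factor of microglia. Positions are chr7:43533172-43533421 (minus strand) for Cd33, chr7:55767934-55768183 (plus strand) for Siglech and chr7:43660162-43660411 (minus strand) for Siglece.
Cd33: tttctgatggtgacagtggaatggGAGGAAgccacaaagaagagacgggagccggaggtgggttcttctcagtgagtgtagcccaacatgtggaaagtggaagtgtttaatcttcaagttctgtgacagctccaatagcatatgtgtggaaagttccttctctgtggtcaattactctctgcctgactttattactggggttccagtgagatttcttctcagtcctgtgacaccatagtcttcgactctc
Siglech: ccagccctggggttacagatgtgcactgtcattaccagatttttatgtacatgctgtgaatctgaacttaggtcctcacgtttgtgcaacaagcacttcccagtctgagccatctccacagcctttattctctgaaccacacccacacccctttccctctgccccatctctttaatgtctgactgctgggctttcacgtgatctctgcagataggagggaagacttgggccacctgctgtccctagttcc
Siglece: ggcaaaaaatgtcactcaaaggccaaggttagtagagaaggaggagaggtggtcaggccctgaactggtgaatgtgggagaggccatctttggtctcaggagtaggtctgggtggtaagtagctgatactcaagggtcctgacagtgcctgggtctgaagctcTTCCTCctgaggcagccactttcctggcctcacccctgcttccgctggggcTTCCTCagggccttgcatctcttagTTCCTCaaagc
Cd33 held the letters at 1 position, 226 bases before the start, and Siglece at 3 positions, 87, 36 and 11 bases before it. The Siglech window held them at 0 positions. Over all 32851 RefSeq promoter windows of this length, 23.3% held the letters on either strand, and a match is a description of the letters only. Of the 5 members with a RefSeq window, 3 held the letters in at least 1 window (Cd33, Siglece and Siglecg, the last in 1 of its 2 windows). The Cd33 window lies inside the longer GENCODE gene, which starts further upstream, and 57 of its 250 bases are in GENCODE exons.

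Libraries held 17204542 to 44018475 recovered reads. The 4 deepest (KO libraries 9 and 12, Het library 11 and WT library 10) had at least 36258598, and the other 6 had 17204542 to 21957927. Trem2 stood at 24.5 ± 3.52 RPKM in KO, 93.9 ± 9.98 in Het (SD, n = 3 each) and 191.5 ± 31.1 in WT libraries (SD, n = 4), and the 3 genotypes did not overlap. The microglial marker P2ry12 was abundant in every library, at 1599 to 2274 RPKM. Summed over 8 microglial markers, levels were 9102 to 10304 RPKM in KO, 8458 to 9912 in Het and 8985 to 10182 in WT libraries. KO library 6 stood apart in neutrophil markers (10 genes), which summed to 2070 RPKM there, 331 and 332 RPKM in the other KO libraries, 129 to 313 in Het and 93.2 to 196 in WT libraries.

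The family spread over 3 tiers of level, with Cd33 and Siglech high, Siglece between and Cd22, Siglec1 and Siglecg low. In WT microglia Cd33 averaged 501 ± 86.2 RPKM and Siglech 429 ± 64.8 RPKM (SD, n = 4), ranks 55 and 67 of 24033 genes. Siglece averaged 62.4 ± 7.23 RPKM, rank 726. Cd22 (3.31 ± 0.98 RPKM), Siglec1 (2.38 ± 1.29) and Siglecg (1.66 ± 0.37) lay at ranks 8782 to 10661. Cd33 made up 50.1%, Siglech 42.9% and Siglece 6.25% of the summed WT level of the 6 genes on the deposited lengths. The same reads divided by GENCODE exon lengths, without recounting over those exons, gave shares of 30.8%, 56.5% and 11.6%. Siglech led there, but reads and lengths may then come from different gene models, so these shares are not a second estimate of level. On the deposited lengths the split in KO (49.9%, 43.3% and 6.06%) and Het libraries (50.3%, 42.5% and 6.42%) was close to that in WT libraries.

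**Figure D1:**
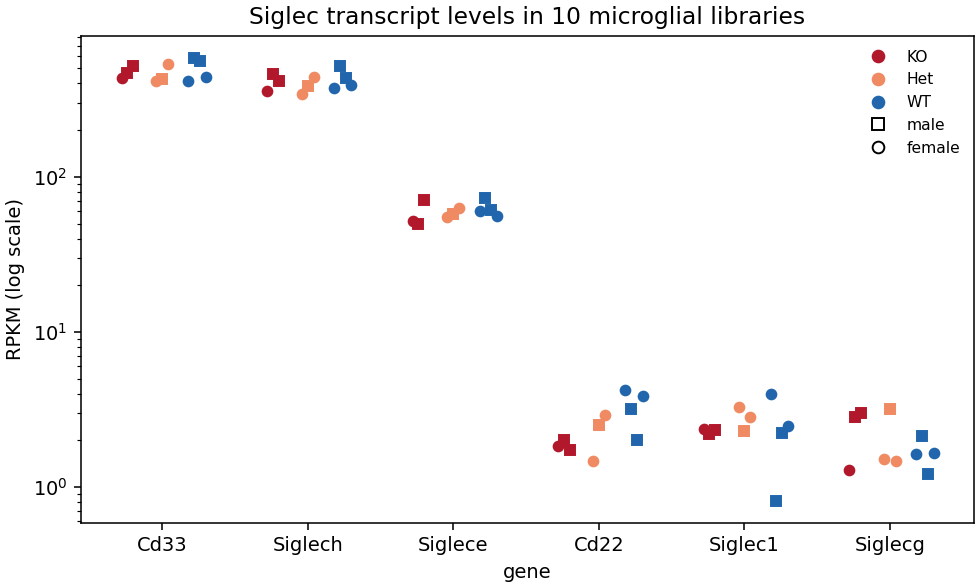
RPKM of the 6 Siglec genes (x axis) on a log scale (y axis); each point is 1 library, colour gives the Trem2 genotype and shape the sex of the mice. Cd33 and Siglech lie between 339.8 and 587 RPKM, Siglece between 49.9 and 72.8, and the other 3 genes between 0.817 and 4.24.

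In the high tier, Cd33 exceeded Siglech in 10 of 10 libraries, by a ratio of 1.02 to 1.29, although the ranges over libraries overlapped. Cd33 also had more reads than Siglech in 10 of 10 libraries, before division by length. Which gene leads per base depends on the gene lengths used. The lengths behind the deposited values were about 2635 bases for Cd33 and 2456 for Siglech, against 7771 and 3383 bases in the GENCODE exon union. When the same reads were divided by the GENCODE lengths, Cd33 exceeded Siglech in 0 of 10 libraries, with WT means of 170 for Cd33 and 312 for Siglech. Reads were not recounted over the GENCODE exons. The deposited lengths were 33.9% of that union for Cd33 and 72.6% for Siglech. Division by the longer lengths therefore lowers Cd33 more and cannot decide which gene leads. Siglech exceeded Siglece in 10 of 10 libraries by 5.86 to 9.16 times, with no overlap of ranges. Siglece exceeded Cd22 in 10 of 10 libraries by 14.2 to 40.7 times, again with no overlap. Below it the ranges overlapped and the order was not fixed. Over all libraries, Cd22 exceeded Siglec1 in 5 of 10 and Siglec1 exceeded Siglecg in 6 of 10. The order of these 3 genes by mean was Siglecg, Siglec1, Cd22 in KO libraries, Siglec1, Cd22, Siglecg in Het libraries and Cd22, Siglec1, Siglecg in WT libraries. The low tier rested on 56 to 300 reads per library for Siglecg, 107 to 716 for Siglec1 and 121 to 766 for Cd22, whereas Siglece had 1841 to 5277, Siglech 15059 to 42254 and Cd33 19375 to 53490.

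The first genotype question was whether loss of both Trem2 copies alters these receptors. By limma on log2(RPKM + 0.5), with sex as a term and p-values adjusted by the Benjamini-Hochberg method over 13621 genes, 0 of the 6 members were called in KO against WT at an adjusted p under 0.05. The background was 0.00734% of genes called, Trem2 being the 1 gene. At an unadjusted p under 0.05, 1 of 6 members (Cd22) stood beside a background of 5.13% of genes. Of the members, 2 had a positive and 4 a negative log2 fold change (median -0.10, against 0.03 over all genes tested). KO and WT values overlapped for all 6 members, whereas 4.59% of genes tested did not overlap (2.99% higher and 1.6% lower in KO). In bulk RNA, fewer cells of a type and less RNA per cell cannot be told apart.

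Siglech, whose product pairs with DAP12, had 359, 457 and 416 RPKM in KO libraries 6, 9 and 12, 339.8, 384 and 439.8 in Het libraries 5, 8 and 11, and 371, 517, 435 and 391 in WT libraries 1, 4, 7 and 10. The highest library was WT 4 and the lowest Het 5, and the genotypes overlapped. KO libraries averaged 95.8% of the WT level (log2 -0.09, SE 0.12, 95% confidence interval -0.36 to 0.18, limma adjusted p = 0.999). Het libraries averaged 90.4% of it (log2 -0.11, SE 0.12, interval -0.38 to 0.17, limma adjusted p = 1.00). Tyrobp, its adaptor, was at 680.5 ± 93.4 RPKM in KO, 693 ± 46.8 in Het (SD, n = 3 each) and 622 ± 63.6 in WT libraries (SD, n = 4).

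Cd33 had 436, 466 and 517 RPKM in KO libraries 6, 9 and 12, 412, 427 and 538 in Het libraries 5, 8 and 11, and 414, 587, 563 and 442 in WT libraries 1, 4, 7 and 10. WT libraries held both the widest spread and the highest values, and all KO values lay inside the WT range. KO libraries averaged 94.4% of WT (log2 -0.10, SE 0.14, interval -0.41 to 0.20, limma adjusted p = 0.999) and Het libraries 91.6% (log2 -0.09, SE 0.14, interval -0.39 to 0.21, limma adjusted p = 1.00). The lower bounds of the KO against WT intervals were a fold of 0.777 for Siglech and 0.755 for Cd33.

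Siglece, the inhibitory receptor shared with neutrophils and monocytes, had 51.6, 49.9 and 71.0 RPKM in KO libraries 6, 9 and 12, 55.0, 57.8 and 63.0 in Het libraries 5, 8 and 11, and 60.0, 72.8, 61.0 and 56.0 in WT libraries 1, 4, 7 and 10. KO libraries 6 and 9 were the lowest of all and KO library 12 the second highest, so the groups overlapped. The difference between KO and WT was log2 -0.15 (SE 0.13, interval -0.44 to 0.13, limma adjusted p = 0.999). Of the 8 neutrophil markers tested, 8 had a positive log2 fold change in KO against WT (median 2.04). An unadjusted p under 0.05 was found for 7 of them, against 5.13% of all genes, and 0 were called. Of 7 monocyte markers tested, 7 were positive (median 0.98), 4 had an unadjusted p under 0.05 and 0 were called. The part of neutrophils and monocytes in the Siglece values was not tested. KO library 6, with the highest neutrophil and monocyte sums (2070 and 143 RPKM), had 51.6 RPKM of Siglece. Without it the KO against WT value was log2 -0.12 (limma adjusted p = 0.925). The other KO libraries moved it further, to -0.29 without KO library 12 (limma unadjusted p = 0.0321, adjusted p = 0.993) and -0.0385 without KO library 9, and it was -0.0830 without WT library 4.

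**Figure D2:**
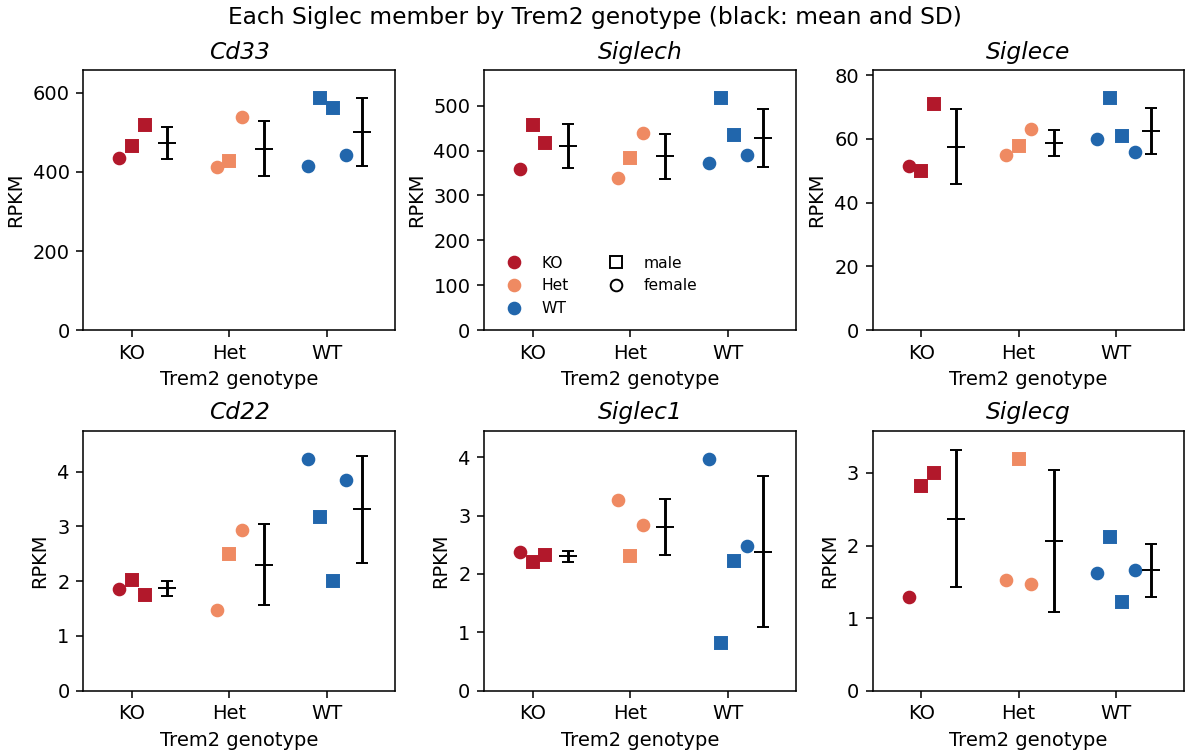
RPKM of each member (y axes, from 0) in the 3 KO, 3 Het and 4 WT libraries (x axes); points are libraries, with squares for male and circles for female mice, and black bars give mean and SD. KO, Het and WT values overlap in all 6 panels, and Cd22 has its 3 KO values between 1.74 and 2.02 RPKM while 3 of 4 WT values are at or above 3.17.

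Among the low-level members, Cd22 showed the widest gap between genotypes. It had 1.85, 2.02 and 1.74 RPKM in KO libraries 6, 9 and 12, 1.48, 2.50 and 2.93 in Het libraries 5, 8 and 11, and 4.24, 3.17, 1.997 and 3.84 in WT libraries 1, 4, 7 and 10. The 3 KO values were close together and lay below 3 of the 4 WT values, and WT library 7 lay among them. KO libraries averaged 56.5% of WT (log2 -0.61, SE 0.25, interval -1.17 to -0.06), which did not pass over all genes (limma unadjusted p = 0.0336, adjusted p = 0.969). Het libraries averaged 69.6% (log2 -0.47, SE 0.25, interval -1.03 to 0.09, limma adjusted p = 1.00), and the value was -0.21 without Het library 5. In KO against WT, the unadjusted p of Cd22 by limma ran from 0.00693 without WT library 7 to 0.140 without KO library 6, and was also above 0.05 without WT library 1, 4 or 10 or KO library 12. Both comparisons use the same WT libraries. Counting error alone gave WT library 1 an exact Poisson 95% interval of 3.84 to 4.66 RPKM and KO library 12 one of 1.56 to 1.95; such intervals cover counting error only.

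CD22 is best known from B cells, and the B cell markers differed among themselves. Pax5 was listed at 0 in all 10 libraries, and Cd79a, Ms4a1 and Blk did not exceed 0.365 RPKM in any library. Cd79b, at 3.16 to 6.83 RPKM, held most of the sum, and its mean of 4.87 RPKM was above that of Cd22 (2.58 RPKM). The summed level was 3.64 to 6.46 RPKM in KO, 3.25 to 7.04 in Het and 3.88 to 7.07 in WT libraries, ranges that overlapped, and the part of B cells in the Cd22 values was not tested.

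Siglecg had 1.29, 2.82 and 3.00 RPKM in KO libraries 6, 9 and 12, 1.52, 3.20 and 1.47 in Het libraries 5, 8 and 11, and 1.63, 2.12, 1.22 and 1.66 in WT libraries 1, 4, 7 and 10. The 3 highest libraries, Het 8, KO 12 and KO 9, were all male, and the lowest was male WT library 7. The KO against WT value was log2 0.28 (SE 0.25, interval -0.26 to 0.83, limma adjusted p = 0.999). It was 0.0301 without WT library 7 and 0.50 without KO library 6. On 56 to 300 reads a library, counting intervals were wide, such as 0.99 to 1.66 RPKM for KO library 6 and 2.69 to 3.77 RPKM for Het library 8.

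Siglec1 had 2.38, 2.20 and 2.32 RPKM in KO libraries 6, 9 and 12, 3.27, 2.31 and 2.84 in Het libraries 5, 8 and 11, and 3.97, 0.817, 2.23 and 2.49 in WT libraries 1, 4, 7 and 10. WT libraries held both the highest and the lowest value, and KO libraries were nearly level. The mean was 2.30 ± 0.09 RPKM in KO (SD, n = 3) and 2.38 ± 1.29 in WT libraries (SD, n = 4), 96.9% of WT, whereas the fit on the log scale with sex as a term ran the other way. By that fit, KO against WT was log2 0.18 (SE 0.29, interval -0.45 to 0.80, limma adjusted p = 0.999), and the direction rested on WT library 4, without which it was -0.15. Het against WT was log2 0.23 (SE 0.29, interval -0.40 to 0.86, limma adjusted p = 1.00), and -0.0151 without WT library 4. That library also had the lowest sum of 8 border macrophage markers, 126 RPKM against 141 to 236 in the other 9 libraries. Over all libraries, the highest Siglec1 library (WT 1, 3.97 RPKM) had a border macrophage sum of 197 RPKM, and the highest border macrophage sum (Het 8, 236 RPKM) came with 2.31 RPKM of Siglec1. All 8 of these markers had positive log2 fold changes in KO against WT (median 0.19) and in Het against WT (median 0.26), with 0 called. Both comparisons use the same WT libraries, WT library 4 among them. In KO against Het, 1 marker was positive and 7 were negative (median -0.0485). The part of border macrophages in the Siglec1 values was not tested.

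**Figure D3:**
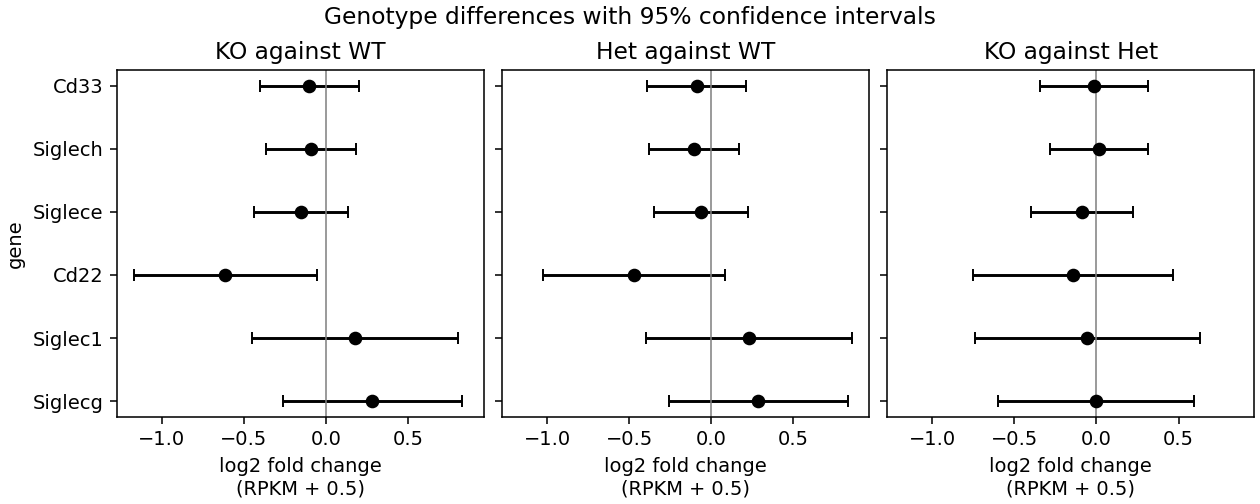
Log2 fold changes on the log2(RPKM + 0.5) scale (x axes) with 95% confidence intervals from limma for the 6 members (y axis) in KO against WT, Het against WT and KO against Het. The interval of Cd22 in KO against WT (-1.17 to -0.06) leaves out 0 before adjustment; all other intervals include 0.

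Het against WT asks whether losing 1 copy is enough to shift a gene. Here 0 of 6 members were called, beside 0% of all genes by limma, and 0 of 6 had an unadjusted p under 0.05, against 2.75% of all genes (375 genes). By limma-voom on recovered reads, 1 gene was called, Trem2. Het and WT values overlapped for all 6, where 4.53% of genes did not overlap (2.23% higher and 2.3% lower in Het). In KO against Het, 0 of 6 members were called (background 0.00734%, again Trem2), and 0 of 6 had an unadjusted p under 0.05 (background 3.35%). KO and Het values also overlapped for all 6, where 7.42% of genes did not (4.4% higher and 3.02% lower in KO). Log2 fold changes of the members in KO against Het ran from -0.14 (Cd22) to 0.01 (Siglech). Their intervals were narrowest for Siglech (-0.28 to 0.31) and widest for Siglec1 (-0.74 to 0.63).

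Sex was a labelled property of the mice and was not balanced over genotypes. Male against female, 6 of 13621 genes were called by limma (0.044%), 4 of them Y-linked genes, with Xist and Pcp4, and 0 of the 6 Siglecs were among them. Siglec1 had 0.817, 2.23, 2.31, 2.20 and 2.32 RPKM in male libraries 4, 7, 8, 9 and 12, against 3.97, 3.27, 2.38, 2.49 and 2.84 RPKM in female libraries 1, 5, 6, 10 and 11. The sexes did not overlap, as was so for 0.565% of genes tested in this direction, 0.338% in the other and 0.903% in either, but the closest male and female values were 2.32 and 2.38 RPKM. The difference did not pass over all genes (log2 -0.52, SE 0.24, interval -1.05 to 0.01, limma adjusted p = 0.919), and the value was -0.27 without WT library 4.

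Siglecg averaged 2.47 ± 0.81 RPKM in male and 1.52 ± 0.15 in female libraries (SD, n = 5 each), with overlap (log2 0.51, SE 0.21, interval 0.05 to 0.98, limma adjusted p = 0.919). It was the 1 member with an unadjusted p under 0.05 (0.0327 by limma, and 0.00247 without WT library 7 to 0.176 without KO library 6), beside 5.34% of all genes. Siglech averaged 442 ± 49.99 RPKM in male and 380.2 ± 38.2 in female libraries (log2 0.21, SE 0.10, interval -0.02 to 0.44, limma adjusted p = 0.921). Cd33 stood at 512 ± 66.1 RPKM in male and 448 ± 51.8 in female libraries (log2 0.19, SE 0.12, limma adjusted p = 0.922).

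**Figure D4:**
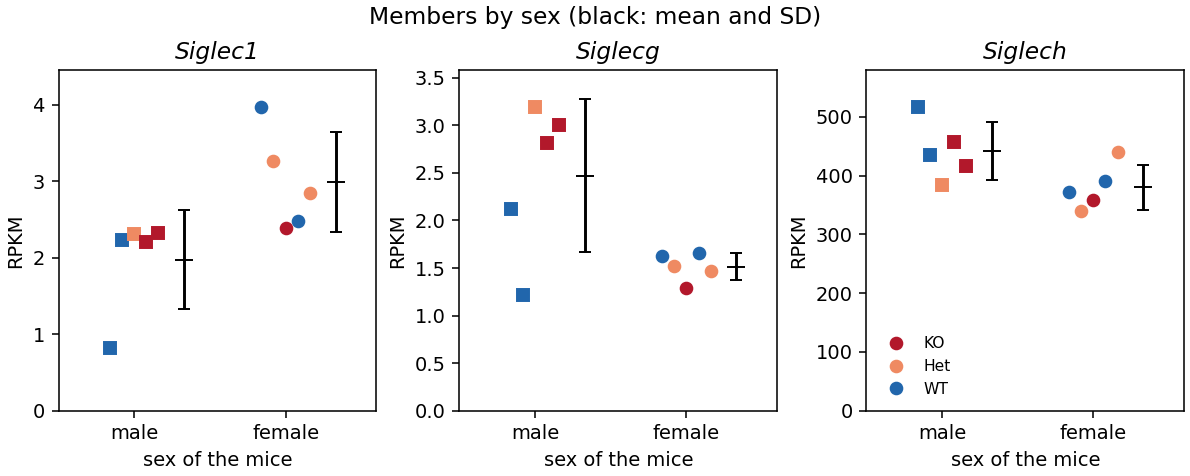
RPKM (y axes, from 0) of Siglec1, Siglecg and Siglech in 5 male and 5 female libraries (x axes), coloured by Trem2 genotype, with black bars for mean and SD. All male Siglec1 values lie at or under 2.32 RPKM and all female values at or above 2.38, and the 3 highest Siglecg values are male.

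Siglech and Cd33 varied together from library to library. Over the 10 libraries, log2(RPKM + 0.5) of the pair gave Pearson's r = 0.856 (permutation p = 0.0015) and Spearman's rho = 0.879 (permutation p = 0.00174), with adjusted p of 0.0225 and 0.0261 over the 15 pairs of members. Without WT library 4 and Het library 5, the libraries farthest from the Siglech median, r was 0.747, and within the 6 shallower libraries it was 0.929; the 4 deeper libraries were too few for a value. The points share the library total that scales both genes. Sex and genotype were not terms here, and both genes averaged higher in male libraries (log2 0.21 for Siglech and 0.19 for Cd33). Other genes came closer to each, such as Maf (r = 0.97 with Siglech and 0.916 with Cd33). The share of all genes with so high an r was not computed. The ratio of Siglech to Cd33 stayed between 0.774 (WT library 7) and 0.981 (KO library 9).

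Siglec1 ran against Siglech (r = -0.764, permutation p = 0.0102, adjusted p = 0.067), with rho = -0.697 (permutation p = 0.031). Within the 6 shallower libraries r was -0.875, but without WT library 4 and Het library 5 it was only -0.371. Leaving out the libraries farthest from the Siglech median also narrows the range, so the drop cannot show how far the relation rests on them. Siglec1 against Cd33 gave r = -0.671 (permutation p = 0.0134, adjusted p = 0.067) and rho = -0.661 (permutation p = 0.044). Here r was -0.809 within the 6 shallower libraries and -0.374 without WT libraries 4 and 7, under the same limit. The permutations took no account of sex or genotype. Siglec1 averaged 1.98 RPKM in male and 2.99 in female libraries, whereas Siglech and Cd33 averaged higher in male libraries. The part of sex in these correlations was not tested. None of the other 12 pairs had an adjusted p under 0.05.

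**Figure D5:**
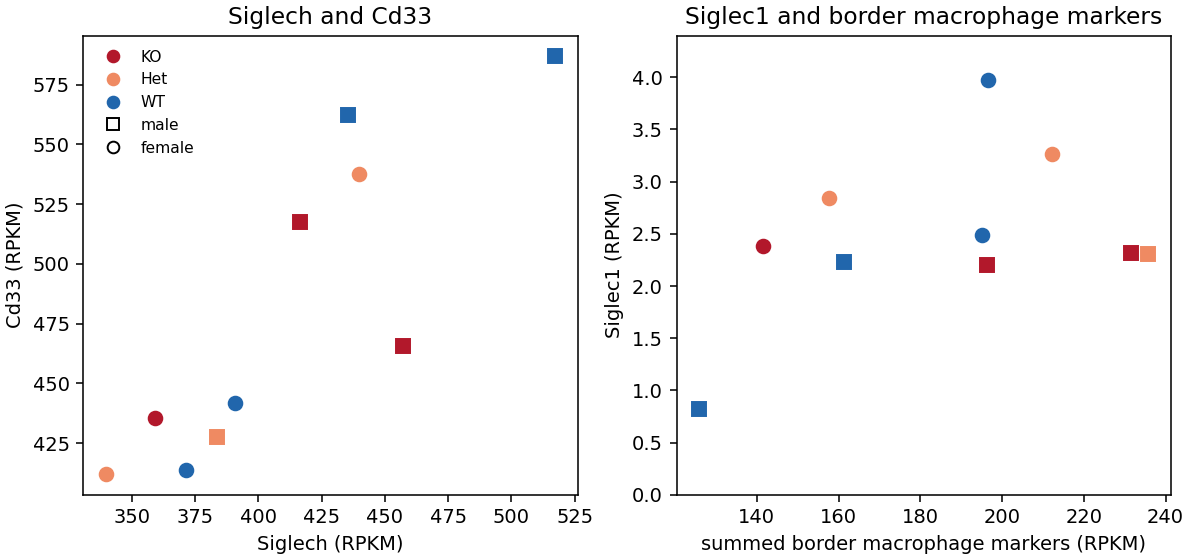
Left, Cd33 against Siglech (RPKM); right, Siglec1 (RPKM, y axis from 0) against the summed RPKM of 8 border macrophage markers. Each point is 1 of the 10 libraries, with colour for genotype and shape for sex. Cd33 and Siglech are both highest in WT library 4 (587 and 517 RPKM), which has the lowest Siglec1 (0.817 RPKM) and the lowest border macrophage sum (126 RPKM).

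By likeness of pattern over the 10 libraries, among 7079 or 7080 named genes with a mean of at least 5 RPKM, the genes closest to Siglech were Maf (r = 0.97), a transcription factor of macrophages, Calm2 (0.966), a calmodulin gene, and Evi5 (0.963). Closest to Cd33 were Ccny (0.925), Mrps31 (0.918) and again Maf (0.916). Leng8 (0.945) came closest to Siglece, Lin54 (0.974) to Siglec1, Smg9 (0.883) to Siglecg and Cul5 (0.905) to Cd22. With so many genes and 10 libraries, values of this size describe these libraries only.

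Genes around the receptors were measured from lists of the pathway. Of 13 signalling partners of Siglecs, 0 passed in KO against WT in either direction (9 with a positive and 4 with a negative log2 fold change, median 0.07), beside the background of 0.00734%. The most abundant after Tyrobp were Lyn, a Src-family kinase that phosphorylates the tyrosine motifs (224 ± 19.2 RPKM in KO, 215 ± 19.6 in Het, SD, n = 3 each, and 228 ± 12.7 in WT libraries, SD, n = 4), and Inpp5d, the phosphatase SHIP1 (129 ± 16.5 RPKM in KO, 132 ± 6.61 in Het and 134 ± 18.1 in WT libraries). Of the 6 genes of sialic acid synthesis and activation 5 were tested, and 0 passed (2 positive, 3 negative, median -0.03). Cmas, which activates sialic acid as its CMP form, led these at 26.5 ± 3.33 RPKM in KO, 27.9 ± 3.71 in Het and 30.6 ± 5.99 in WT libraries.

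Sialyltransferases, which attach sialic acid to glycans and so make Siglec ligands, had 15 of 20 members tested, and 0 passed in KO against WT (9 positive, 6 negative, median 0.06). St3gal6 was the most abundant by far, at 179.7 ± 46.5 RPKM in KO, 165 ± 42.4 in Het (SD, n = 3 each) and 195 ± 11.7 in WT libraries (SD, n = 4). It was followed by St3gal5, the GM3 synthase (30.6 ± 5.81 RPKM in KO, 31.7 ± 6.92 in Het and 29.6 ± 4.74 in WT libraries). Of 10 genes of sialic acid removal and turnover, 8 were tested and 0 passed (6 positive, 2 negative, median 0.04). Among them Ctsa, the lysosomal partner of the sialidase NEU1, was at 139 ± 19.998 RPKM in KO, 137 ± 11.3 in Het and 130.0 ± 17.6 in WT libraries. In Het against WT and in KO against Het, 0 genes of these 4 lists passed.

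Of the other mouse Siglecs, Mag, the myelin-associated Siglec of oligodendrocytes, was at 2.33 ± 0.92 RPKM in KO, 1.77 ± 0.71 in Het (SD, n = 3 each) and 1.81 ± 0.68 RPKM in WT libraries (SD, n = 4). Siglec15 had 0 reads in all 10 libraries, which allows up to 3 reads per library (0.0682 to 0.174 CPM). A row named Siglec5 was at 6.71 ± 0.67 RPKM in KO, 7.53 ± 0.34 in Het and 9.08 ± 1.10 in WT libraries. RefSeq lists that name as a synonym of both Siglecf and Siglece; the length behind its values, about 2572 bases, is nearer to the Siglecf exon union (2790 bases) than to that of Siglece (1849 bases). Plasmacytoid dendritic cells are the other cells known for Siglech, and the summed level of 8 of their markers was 69.1 to 72.0 RPKM in KO, 59.7 to 71.0 in Het and 63.4 to 75.2 in WT libraries. Tcf4 (mean 49.3 RPKM over all libraries) and Bst2 (13.004) held most of it, followed by Cox6a2 (3.59), Ccr9 (1.08) and Pacsin1 (0.899), while Ly6d, Klk1 and Spib did not exceed 0.292 RPKM in any library. Their part in the Siglech values was not tested.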

How the data were processed

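The authors deposited linear RPKM, with 1 file for each of 10 libraries. The submitters' processing notes name STAR, HTSeq, edgeR, limma and mm10; no source used here gives their versions, their roles or the annotation. Of 24060 gene names, 27 had been turned into dates and were left out. In all 19983 genes with a value above 0, the deposited RPKM were whole multiples of 1 read within 0.0005 reads or a relative 3e-07. The smallest whole reads that fit a gene were taken as its reads. For a gene above 0 in only 1 library, or whose reads share a divisor, the true reads may be higher.

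Values were analysed as log2(RPKM + 0.5) with limma 3.58.1 in R 4.3.3 (limma-trend) over the 13621 genes that reached 0.5 RPKM in 3 or more libraries; all 6 members passed. Genotype and sex were terms, all 10 libraries entered 1 fit, tests were two-sided, and Benjamini-Hochberg adjustment ran over all genes tested. The fit was also run on simulated reads with known changes in KO. The simulation gave all genes the same relative spread beyond counting error and no sex effect. It therefore cannot show how well the fit does on these data. Correlations used 100000 permutations, with no term for sex or genotype. Fold changes on this scale understate the change of low genes. Alternatives changed the pseudocount, filter, scaling, weights, terms and libraries, and 1 used limma-voom on recovered reads. The members and gene lists were chosen with earlier results of these data known. Named were the members, Trem2, the most abundant genes of each list and, for each member, the genes of most like pattern. Values of some single marker genes are not reported here.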

Additional observations from a re-analysis of the deposited data

Results flagged for a closer look

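In the 18 groups examined for a library far from the rest (6 members in WT, male and female libraries), 2 were found, where chance gives about 1 in 20. Among male libraries, Siglec1 in WT library 4 stood at 0.817 RPKM, with the nearest male library at 2.20 RPKM. It rested on 107 reads (exact Poisson 95% interval 0.670 to 0.988 RPKM). Among female libraries, Cd33 in Het library 11 stood at 538 RPKM, with the nearest female library at 442 RPKM. Het library 11 is 1 of the 4 deeper libraries.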

How the results depend on the processing

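Under every alternative run, 0 of the 6 members were called in any comparison (lowest adjusted p = 0.626); of 468 recomputed member values 441 kept their direction and 27 reversed. Reversals of KO against Het were 0.0495 for Cd33 and 0.17 for Siglecg without the sex term, 0.17 for Siglecg and 0.0134 for Cd22 with sample quality weights, 0.0728 for Siglecg by limma-voom, -0.0221 for Siglech with median-ratio scaling, 0.0440 for Cd33 with only the 2 genotypes compared, and -0.0369 for Siglech with the deeper libraries as a term, which was chosen after seeing the data. With quality weights Siglech in KO against WT was 0.0170. Leaving out each library in turn, KO against Het ran from -0.12 to 0.13 for Siglech, -0.21 to 0.13 for Cd33, -0.22 to 0.0167 for Siglece, -0.14 to 0.22 for Siglec1, -0.0872 to 0.24 for Siglecg and -0.39 to 0.0911 for Cd22. Het against WT ran from -0.24 to 0.0137 for Siglech, -0.24 to 0.0881 for Cd33, -0.14 to 0.0231 for Siglece and -0.0151 to 0.46 for Siglec1, and KO against WT from -0.15 to 0.42 for Siglec1. Cd22 in KO against WT ran from -0.83 to -0.51, and from -0.73 to -0.48 under the other settings; leaving out libraries gave Siglece -0.29 to -0.0385 and Siglecg 0.0301 to 0.50 in KO against WT, and Cd22 -0.68 to -0.21 in Het against WT.

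Over all genes, 2 were called in KO against WT with quality weights, by limma-voom or with the depth term, against 1, and leaving out each library gave 1 to 3 (3 without KO library 6). Limma-voom called 1 gene in Het against WT, against 0: Trem2 (log2 -1.003, adjusted p = 0.0349). The order of the members by level kept 4 of 6 positions in Het libraries, in KO libraries and with GENCODE lengths. The GENCODE setting was also added after seeing the data and used reads not recounted over those exons. The cause was not tested. The planned edgeR and DESeq2 alternatives on recovered reads were not run; limma-voom was the test run on those reads. No paired analysis was possible because the genotypes share no library numbers. For Siglecg, Siglec1 and Cd22, few reads limit the precision.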

Other observations

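Some genes around the Siglecs differed more between KO and WT than most Siglecs did, but none passed over all genes, and they were chosen after their values were seen. St8sia6, a sialyltransferase that adds sialic acid to sialic acid and is known in mice for making ligands of Siglec-E, had 7.23, 7.33 and 5.02 RPKM in KO libraries 6, 9 and 12, 8.11, 10.6 and 6.60 in Het libraries 5, 8 and 11, and 16.0, 11.8, 13.9 and 9.24 in WT libraries 1, 4, 7 and 10. All KO values lay under all WT values, as was so for 1.6% of genes tested in this direction. KO libraries averaged 51.1% of WT (log2 -0.93, SE 0.22, 95% confidence interval -1.40 to -0.45, limma adjusted p = 0.913; adjusted p from 0.428 to 1.00 over the alternatives). Het libraries averaged 66.0% of WT (log2 -0.55, SE 0.22, limma adjusted p = 1.00).

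St3gal4, a sialyltransferase that caps galactose, had 3.14, 3.26 and 4.24 RPKM in KO libraries 6, 9 and 12, 3.94, 3.72 and 3.21 in Het libraries 5, 8 and 11, and 3.02, 1.25, 1.66 and 2.79 in WT libraries 1, 4, 7 and 10. Neither KO nor Het values overlapped WT, as was so for 2.99% and 2.23% of genes tested in this direction. The log2 difference was 0.69 in KO against WT (SE 0.24, limma adjusted p = 0.937) and 0.63 in Het against WT (SE 0.24, limma adjusted p = 1.00). Both comparisons use the same WT libraries, of which 4 and 7, the lower ones, are male.

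The row named Siglec5 had 7.39, 6.70 and 6.04 RPKM in KO libraries 6, 9 and 12, 7.24, 7.91 and 7.44 in Het libraries 5, 8 and 11, and 7.64, 8.82, 9.73 and 10.1 in WT libraries 1, 4, 7 and 10. KO lay below WT without overlap, as was so for 1.6% of genes tested in this direction, by a narrow gap between 7.39 and 7.64 RPKM. The log2 difference was -0.41 (SE 0.14, limma adjusted p = 0.937, and from 0.519 to 1.00 over the alternatives). Siglec-F is known from eosinophils in mice, and the sum of 6 eosinophil markers was 2.74 to 7.68 RPKM in KO, 2.34 to 5.22 in Het and 1.36 to 2.57 in WT libraries. No one of these markers exceeded 2.60 RPKM in any library, and their part in the row named Siglec5 was not tested.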
